A study of Homo sapiens with 40 samples.

Results

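The T-cell receptor alpha (TRA) and delta (TRD) segments were taken as every symbol of the count tables that begins with TRAV, TRAJ, TRDV, TRDD or TRDJ and a number, together with the constant segments TRAC and TRDC. The rule found 126 of 62754 genes: 54 TRAV, 60 TRAJ, 3 TRDV, 3 TRDD and 4 TRDJ segments and the 2 constant segments. Of these, 13 are annotated as pseudogenes, and 5 TRAV segments carry DV in their names because they can also serve the delta chain. All lie on chromosome 14 of GRCh38, from TRAV1-1, which starts at base 21621838, to TRAC, which ends at base 22552154, and all but TRDV3 are on the plus strand.

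The study measured RNA in human lines of T-cell acute lymphoblastic leukaemia (T-ALL) to ask what loss of the RNA-binding protein QKI does. There were 40 libraries in 10 groups of 4. Jurkat cells, grown in 10% serum, received an NTC (non-targeting control) siRNA or a QKI siRNA by electroporation; the count columns of the control are headed shNTC and were taken as the NTC siRNA. Cells labelled HPB-ALL, in 20% serum, received a viral NTC shRNA or QKI shRNA, and the lines HPB-ALL and KARPAS-45 (20% serum) and TALL-1, LOUCY, DND-41 and ALL-SIL (10% serum) were left untreated. Each is an established leukaemia line that stands for a single patient's disease, and nothing in the labels says that the untreated replicates came from separate cultures, so p-values may measure technical spread alone.

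A T-cell receptor is a pair of chains, alpha with beta or gamma with delta. The gene of each chain is assembled in the developing T cell by the RAG recombinase, which joins a V segment (for delta also D segments) to a J segment; splicing then attaches the constant segment. The delta segments lie between the TRAV and TRAJ segments, so that joining a TRAV to a TRAJ removes the delta locus between them from that chromosome. Cells of a clone share the rearrangement of their founder, which is why the V and J segments found in RNA mark the clone of a leukaemia line. V segments that were not rearranged can also be transcribed at low level from their own promoters.

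Libraries held 44.1 to 134.9 × 1000000 counts on genes. QKI averaged 148.4 CPM (counts per 1000000, scaled by TMM) in Jurkat with the NTC siRNA and 21.5 CPM with the QKI siRNA (edgeR log2 fold change -2.79, SE 0.17, adjusted p = 0.000129). Among cells labelled HPB-ALL, QKI averaged 104.0 CPM with the NTC shRNA and 55.8 CPM with the QKI shRNA. The libraries labelled HPB-ALL stand apart from the untreated line of that name. Of 10 T-cell markers, 0 averaged over 1 CPM in them and their summed level was 0.744 to 0.958 CPM, against 6228 to 8591 CPM and 10 of 10 in HPB-ALL; CD5, LCK and CD28 were at 0 in every NTC shRNA library. Their summed level of 12 myeloid markers was 2980 to 3575 CPM, against 15.1 to 34.7 CPM in HPB-ALL. Of these markers 8 (NTC shRNA) and 7 (QKI shRNA) averaged over 1 CPM, against 1 in HPB-ALL. Of 6 B-cell markers 4 did so in either group and 2 in HPB-ALL, where their summed level was higher (40.4 to 53.1 against 17.3 to 20.0 CPM). The libraries labelled HPB-ALL are called by their label throughout and are never pooled with the line. In every other group 8 to 10 of the T-cell markers averaged over 1 CPM.

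The V segments below were chosen because each led or came next after the leader in its class in at least 1 line. For each, the last 60 coding bases are shown, the end that is joined to a J segment, or to a D segment in a delta chain. Capitals mark the codon of the conserved cysteine that opens the joint region. It was found as the last in-frame cysteine codon after a tyrosine or phenylalanine codon. The sequences are those of the GENCODE 29 transcripts on GRCh38, plus strand, and none was read from the libraries. In order they lie at chr14:21894971-21895030, chr14:21847162-21847221, chr14:22008122-22008181, chr14:21749646-21749705, chr14:22086902-22086961, chr14:22096560-22096619, chr14:22422983-22423042 and chr14:22168929-22168988.
TRAV8-4: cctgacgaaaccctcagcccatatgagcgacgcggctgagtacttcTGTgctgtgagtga
TRAV8-2: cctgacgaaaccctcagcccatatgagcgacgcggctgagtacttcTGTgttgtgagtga
TRAV19: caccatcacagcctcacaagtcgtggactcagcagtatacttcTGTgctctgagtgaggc
TRAV5: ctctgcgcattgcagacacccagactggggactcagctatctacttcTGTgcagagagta
TRAV23DV6: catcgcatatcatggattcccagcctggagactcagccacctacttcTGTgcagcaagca
TRDV1: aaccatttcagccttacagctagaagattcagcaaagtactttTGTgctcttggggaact
TRDV2: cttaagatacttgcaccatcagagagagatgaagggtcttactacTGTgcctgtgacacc
TRAV30: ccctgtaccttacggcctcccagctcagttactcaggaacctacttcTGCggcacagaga

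The J segments that carried the counts are printed whole. Capitals mark the J motif, a phenylalanine or tryptophan codon followed by glycine, any residue and glycine. It was searched on the coding strand, in the annotated frame where there is one, and is present in 60 of 64 TRAJ and TRDJ segments (93.8%). They lie at chr14:22545037-22545098, chr14:22544071-22544136, chr14:22543179-22543240, chr14:22542199-22542261, chr14:22503750-22503814, chr14:22459098-22459156 and chr14:22456689-22456742.
TRAJ1: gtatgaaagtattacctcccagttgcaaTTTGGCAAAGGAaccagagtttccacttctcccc
TRAJ2: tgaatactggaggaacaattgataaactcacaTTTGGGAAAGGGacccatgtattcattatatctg
TRAJ3: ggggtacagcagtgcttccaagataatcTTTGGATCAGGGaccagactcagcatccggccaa
TRAJ4: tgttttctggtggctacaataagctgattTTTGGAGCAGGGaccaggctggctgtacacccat
TRAJ37: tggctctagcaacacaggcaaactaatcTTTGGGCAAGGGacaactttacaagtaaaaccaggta
TRDJ3: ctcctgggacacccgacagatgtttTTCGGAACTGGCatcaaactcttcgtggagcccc
TRDJ2: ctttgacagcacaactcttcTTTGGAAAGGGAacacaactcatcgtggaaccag

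Within each group most segments were lacking and a few were very high. In all 40 libraries 18 members were at 0, and 43 never had more than 3 counts. Only 44 had more than 3 counts in every library of at least 1 group, among them 1 pseudogene, TRAV8-5. A member with at most 3 counts in every library of a group is called lacking there. By that measure 76 and 81 of 126 were lacking in Jurkat (NTC and QKI siRNA), 101 in LOUCY, 103 in TALL-1, 109 in HPB-ALL, 111 in KARPAS-45, 112 in ALL-SIL, 114 in DND-41 and 124 in either group labelled HPB-ALL. A library at 0 allows up to 3 counts, which is 0.0222 to 0.0653 CPM at these depths, counting error only.

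**Figure D1:**
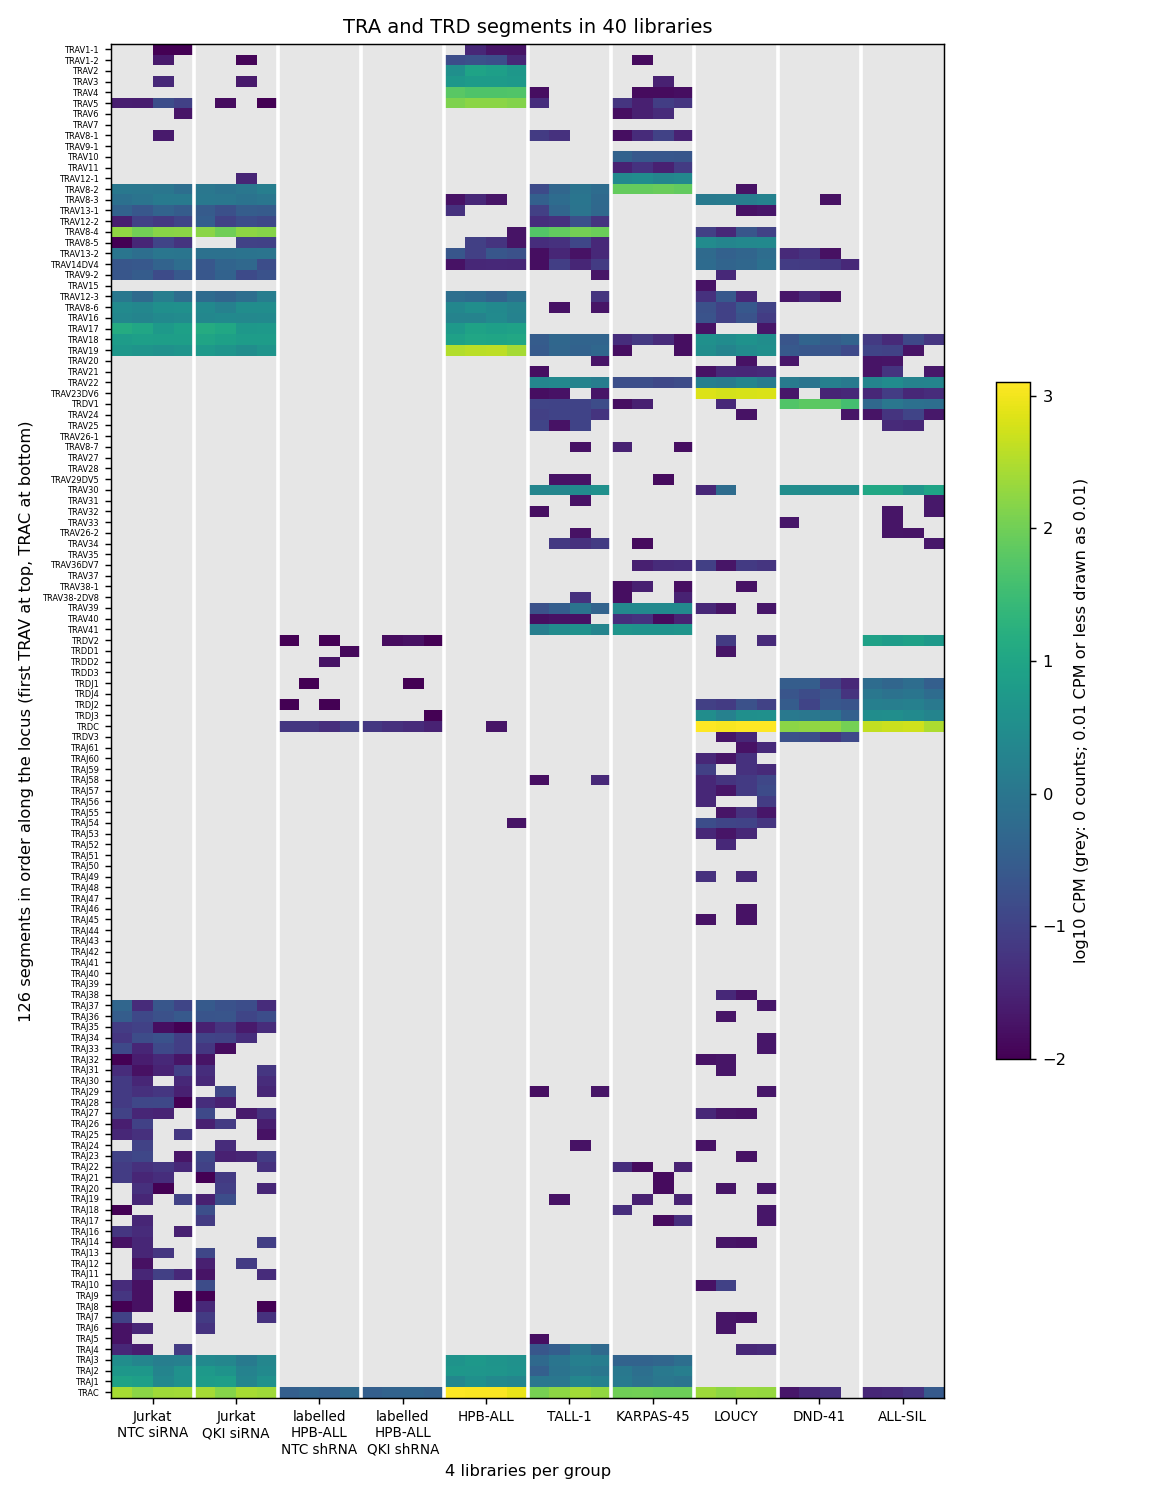
Level of each of the 126 segments (rows, in order along the locus) in each of the 40 libraries (columns, 4 per group) as log10 CPM; grey cells are libraries at 0 counts. Each line shows a few V rows brighter than its others, the constant row TRAC or TRDC (both in LOUCY), and long grey stretches. The 2 groups labelled HPB-ALL are grey in all 54 TRAV and all 60 TRAJ rows.

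TRAC, the constant segment of the alpha chain, divided the groups into those with abundant and those with almost no alpha RNA. In HPB-ALL it measured 1241, 1168, 1160 and 866 CPM in the 4 libraries, a mean of 1109 ± 166 (SD, n = 4), the top of the order and above every library of any other group. Jurkat followed at 228.6 ± 48.3 CPM with the NTC siRNA and 228.7 ± 53.9 with the QKI siRNA (n = 4 each), then LOUCY at 198.6 ± 21.3 (n = 4) and TALL-1 at 178.8 ± 53.3 (n = 4). These 4 groups overlapped library by library and do not differ beyond their spread. KARPAS-45, with libraries from 93.0 to 102.2 CPM (97.7 ± 3.93, n = 4), lay below every library of those groups. In these bulk samples fewer expressing cells and less RNA per cell cannot be told apart.

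TRAC was under 1 CPM in every library of the other groups. The libraries labelled HPB-ALL had 40 to 56 counts with the NTC shRNA (0.442 ± 0.109 CPM, n = 4) and 41 to 58 with the QKI shRNA (0.401 ± 0.0441 CPM, n = 4). ALL-SIL had 2, 2, 3 and 13 counts, so that 1 library holds most of its mean of 0.104 CPM. DND-41 had 1, 2, 3 and 0 counts. ALL-SIL and DND-41 held T-cell genes beside this low TRAC: CD3E, a signalling chain of the receptor complex, averaged 695.9 CPM in ALL-SIL and 1039 CPM in DND-41.

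TRDC, the constant segment of the delta chain, was high in 3 lines. LOUCY measured 1248, 1209, 1313 and 1126 CPM (1224 ± 78.0, n = 4), ALL-SIL 425.5, 499.7, 539.0 and 296.9 CPM (440.3 ± 107, n = 4) and DND-41 161.7, 178.7, 184.7 and 108.2 CPM (158.3 ± 34.8, n = 4). No library of one of these lines overlapped another, and LOUCY was 2.78-fold above ALL-SIL and 7.73-fold above DND-41. TRDC was at 0 in all 8 Jurkat libraries and in all libraries of TALL-1 and KARPAS-45, so LOUCY was at least 23200-fold above TALL-1 and at least 27600-fold above KARPAS-45 when those were set to 3 counts per library. HPB-ALL had 1 count in 1 library. The libraries labelled HPB-ALL had 5 to 8 counts (NTC shRNA) and 4 to 8 counts (QKI shRNA).

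Only LOUCY held both constant segments at high level. Per kilobase of annotated exon its TRDC was 8.39 ± 0.392 times its TRAC (SD, n = 4). TRDC, TRDV2 and 16 further members from TRDD1 to TRAJ54 overlap an annotated gene on the minus strand, AC244502.1, and no source used here gives the strand setting of the counting. Reads of that gene and of these members cannot be told apart where strand was not used.

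**Figure D2:**
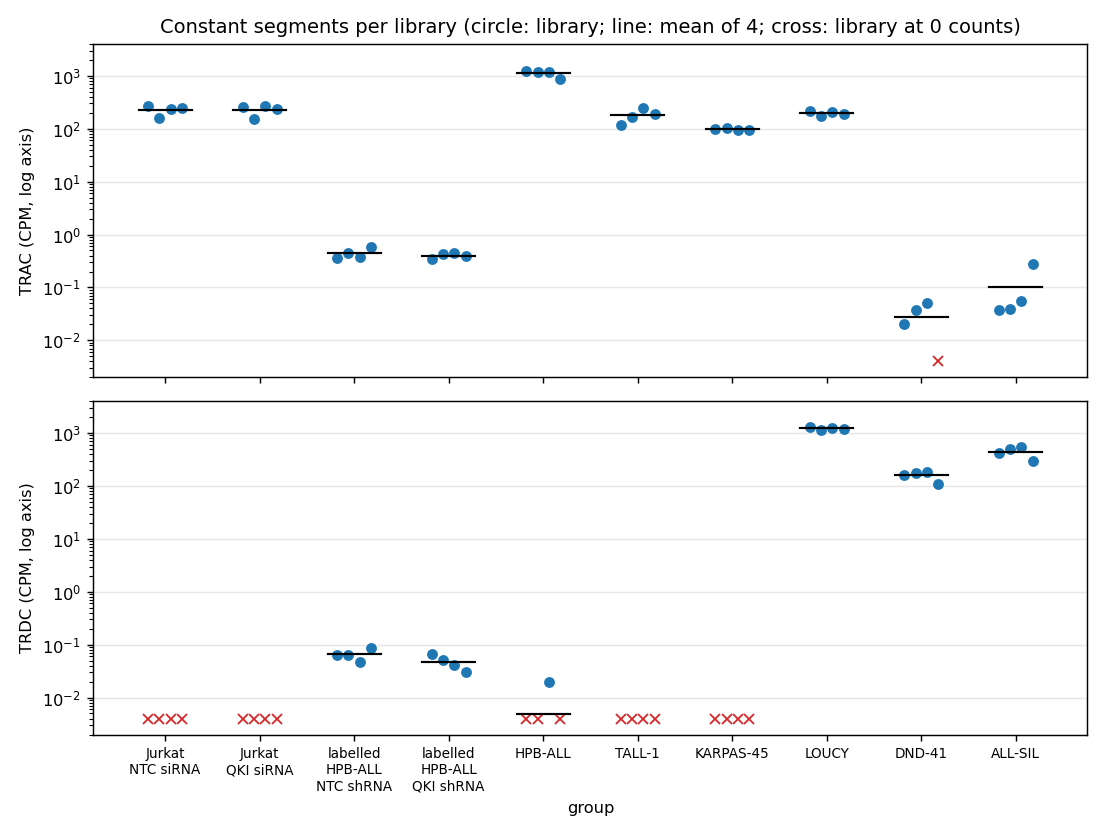
TRAC (top) and TRDC (bottom) in CPM on log axes, by group; circles are libraries, black lines are means of 4 libraries and red crosses are libraries at 0 counts. TRAC is above 90 CPM in HPB-ALL, Jurkat, TALL-1, KARPAS-45 and LOUCY; TRDC is above 100 CPM in LOUCY, ALL-SIL and DND-41 only.

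In Jurkat the dominant V segment was TRAV8-4. It had 180.1, 104.7, 157.8 and 164.2 CPM with the NTC siRNA and 166.8, 98.8, 169.2 and 147.3 CPM with the QKI siRNA. Library 2 was the lowest of both groups, and the groups overlapped. Per kilobase TRAV8-4 made up 81.7% ± 3.36 (SD, n = 4) of all TRAV signal in the control and 81.2% ± 4.99 (SD, n = 4) after knockdown. The runner-up TRAV17 held 5.10% and 5.00%. TRAV8-4 exceeded TRAC per kilobase, by a ratio of 1.38 ± 0.0245 and 1.33 ± 0.0303 (n = 4 each).

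TALL-1 carried the same dominant V segment. TRAV8-4 measured 54.9, 75.2, 109.2 and 88.2 CPM and held 85.8% ± 0.927 of the TRAV signal per kilobase (n = 4), ahead of TRAV30 with 3.96%. Its ratio to TRAC per kilobase was 0.958 ± 0.0366 (n = 4). TRAV8-4 was at 0 in KARPAS-45, DND-41 and ALL-SIL, so that TALL-1 was at least 1840-fold, 1440-fold and 1390-fold above them. Jurkat and TALL-1 shared this V segment, but TRAV30, TRAV41 and TRAV22, each over 1 CPM in every TALL-1 library, were at 0 in all 8 Jurkat libraries.

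KARPAS-45 used the close relative TRAV8-2. Its libraries held 79.4, 76.9, 87.3 and 74.6 CPM, 82.7% ± 1.34 of the TRAV signal per kilobase (n = 4), against 7.25% for the runner-up TRAV41. TRAV8-2 stood at 1.41 ± 0.111 times TRAC per kilobase. The reference sequences of TRAV8-2 and TRAV8-4 are 96.2% identical over 341 coding bases, with 13 differing positions. They are printed below as second coding exons, with the differing bases in capitals, because a read without one of these positions would fit both (chr14:21894736-21895030 and chr14:21846927-21847221, plus strand).
TRAV8-4: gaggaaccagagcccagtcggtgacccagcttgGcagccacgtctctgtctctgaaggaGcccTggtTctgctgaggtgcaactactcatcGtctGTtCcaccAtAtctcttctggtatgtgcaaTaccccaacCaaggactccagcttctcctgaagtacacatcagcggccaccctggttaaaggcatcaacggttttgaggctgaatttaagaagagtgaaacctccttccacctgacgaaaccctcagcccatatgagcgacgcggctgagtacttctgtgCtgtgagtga
TRAV8-2: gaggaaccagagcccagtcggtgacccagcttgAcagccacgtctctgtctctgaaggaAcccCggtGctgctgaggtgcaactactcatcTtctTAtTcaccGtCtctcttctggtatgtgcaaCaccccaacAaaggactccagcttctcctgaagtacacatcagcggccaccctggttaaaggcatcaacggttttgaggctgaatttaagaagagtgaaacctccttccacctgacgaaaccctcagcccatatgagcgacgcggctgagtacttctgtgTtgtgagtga

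The counts nevertheless separated the pair in KARPAS-45, where TRAV8-2 had 4862 to 6064 counts per library and TRAV8-4 had 0. In Jurkat TRAV8-2 had 59 to 167 counts beside 6716 to 20032 counts of TRAV8-4, and in TALL-1 it had 9 to 50 counts. How much of these low TRAV8-2 counts came from TRAV8-4 reads was not tested, and they are uncertain.

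In HPB-ALL the leading V segment, TRAV19, held a smaller share than the leaders of the other alpha lines. It measured 327.9, 377.4, 384.5 and 261.8 CPM and held 52.8% ± 3.68 of the TRAV signal per kilobase (n = 4). TRAV5 followed with 129.9, 160.7, 160.0 and 145.3 CPM and 31.2%, and TRAV4 with 49.7 to 61.4 CPM. Set against TRAC per kilobase, TRAV19 reached 0.638 ± 0.0627 and TRAV5 0.380 ± 0.0716 (n = 4 each). TRAV19 stood 117-fold above its level in LOUCY and 811-fold above TALL-1. TRAV5 was at 0 in LOUCY, DND-41 and ALL-SIL and so at least 2530-fold higher in HPB-ALL than in each of them.

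LOUCY was dominated by TRAV23DV6, a V segment that both chains can use. It measured 616.2, 632.9, 665.2 and 603.9 CPM and held 97.9% ± 0.154 of the TRAV signal per kilobase (n = 4), with the runner-up TRAV18 at 0.502%. Its ratio was 0.907 ± 0.0329 to TRDC and 7.61 ± 0.626 to TRAC per kilobase. It was at 0 in HPB-ALL and KARPAS-45, at least 11300-fold and 14200-fold lower. Among the TRDJ segments TRDJ3 held 96.0% ± 1.21 (1.71 to 3.58 CPM).

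DND-41 carried TRDV1, a delta V segment. It measured 52.6, 66.3, 63.7 and 36.9 CPM, 99.8% ± 0.101 of the TRDV signal per kilobase (n = 4), and stood at 0.682 ± 0.0372 times TRDC. TRDV1 reached 0.754 CPM in ALL-SIL, 72.8-fold lower, and 6 to 8 counts per library in TALL-1. Library 4 of DND-41 was the lowest for TRDV1 and for TRDC. TRAV segments were low in DND-41: TRAV30 had 2.93 to 3.88 CPM and TRAV22 0.963 to 1.69 CPM. The TRDJ segments were present but low, with TRDJ3 at 0.370 to 1.15 CPM.

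ALL-SIL had delta constant RNA without a V segment at a matching level. Its TRDC reached 440.3 CPM, but TRDV2, the top TRDV segment, measured 8.46, 6.60, 7.76 and 5.46 CPM (86.5% ± 4.37 of the TRDV signal, n = 4). TRAV30 measured 10.8, 10.7, 4.67 and 9.03 CPM (81.1% ± 5.67 of the TRAV signal). Per kilobase TRDV2 was only 0.0228 ± 0.00441 and TRAV30 0.0458 ± 0.0198 times TRDC (n = 4 each), and TRAC and TRDC together made up 93.2% to 96.2% of all counts on the 126 members. In LOUCY that share was 67.7% to 69.7% and in DND-41 71.1% to 72.9%. All 4 TRDJ segments were counted in ALL-SIL, with TRDJ3 at 2.81 CPM, TRDJ2 at 1.48, TRDJ4 at 0.877 and TRDJ1 at 0.533 on average; TRDJ3 held 45.8% ± 3.74 of their signal per kilobase.

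**Figure D3:**
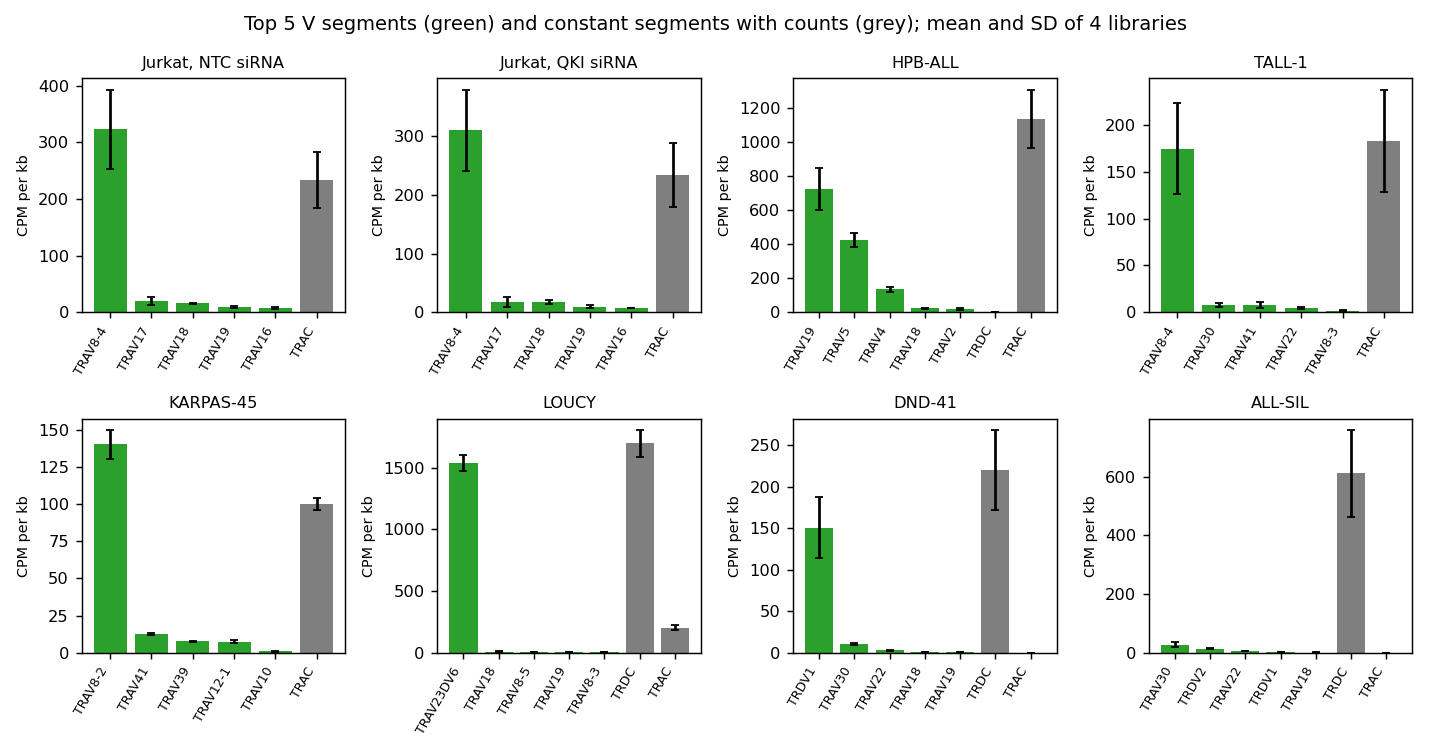
Mean level in CPM per kilobase of annotated exon of the 5 highest V segments (green) and of the constant segments (grey) in the 8 groups with a dominant segment; bars start at 0 and error bars are the SD of 4 libraries. In Jurkat, TALL-1, KARPAS-45, LOUCY and DND-41 1 V bar comes near its constant bar, HPB-ALL has 2 large V bars, and in ALL-SIL no V bar comes near TRDC.

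In Jurkat, HPB-ALL, KARPAS-45 and TALL-1 the TRAJ counts gathered in the J segments nearest TRAC. TRAJ3, TRAJ2 and TRAJ1 together held 87.3% and 90.6% of all TRAJ counts in Jurkat (NTC and QKI siRNA), 100.0% in HPB-ALL, 97.5% in KARPAS-45 and 86.7% in TALL-1. In TALL-1 TRAJ4 was also counted in every library, with 0.234 to 0.991 CPM. DND-41, ALL-SIL and both groups labelled HPB-ALL had 0 counts on all 60 TRAJ segments.

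Jurkat and the other lines differed in how far these counts reached. In Jurkat the 24 segments from TRAJ61 to TRAJ38 were at 0 in all 8 libraries, while all 33 from TRAJ37 to TRAJ4 had counts with the NTC siRNA and 30 of 33 with the QKI siRNA. Those 33 summed to 709 and 432 counts, low beside TRAJ1. TRAJ37 had 5 to 52 counts per library with the NTC siRNA. The labels describe the Jurkat RNA as total RNA, and whether that bears on these low counts was not tested. In HPB-ALL 0 counts fell on TRAJ37 to TRAJ4, in KARPAS-45 19 and in TALL-1 124, most of the last on TRAJ4.

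The leading J segments of the alpha lines held under 50% of their class on average. TRAJ1 led in Jurkat with 41.1% ± 6.90 and 42.0% ± 5.74 of the TRAJ signal per kilobase and in TALL-1 with 38.4% ± 6.23 (n = 4 each). In HPB-ALL TRAJ3 and TRAJ2 held 38.6% and 38.2%, and in KARPAS-45 TRAJ2 and TRAJ1 held 39.0% and 39.1%, so that neither pair differs beyond its spread. Which J segment is joined to the dominant V segment cannot be read from these gene counts, since reads were counted per segment. In Jurkat TRAJ1 measured 8.65, 7.47, 2.39 and 3.78 CPM with the NTC siRNA and 6.47, 7.39, 2.09 and 3.89 CPM with the QKI siRNA: libraries 1 and 2 were high and library 3 the lowest in either group.

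LOUCY had few TRAJ counts, 30 to 37 per library, although its TRAC was near that of Jurkat. None of them lay on TRAJ3, TRAJ2 or TRAJ1, and 101 of them, over 4 libraries, lay on TRAJ61 to TRAJ38, at the other end of the cluster. Most of these 101 lay on TRAJ61 to TRAJ54, which overlap AC244502.1 on the minus strand. Where strand was not used, they cannot be told apart from reads of that gene. A further 33 counts were spread over 18 of the 33 segments from TRAJ37 to TRAJ4.

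**Figure D4:**
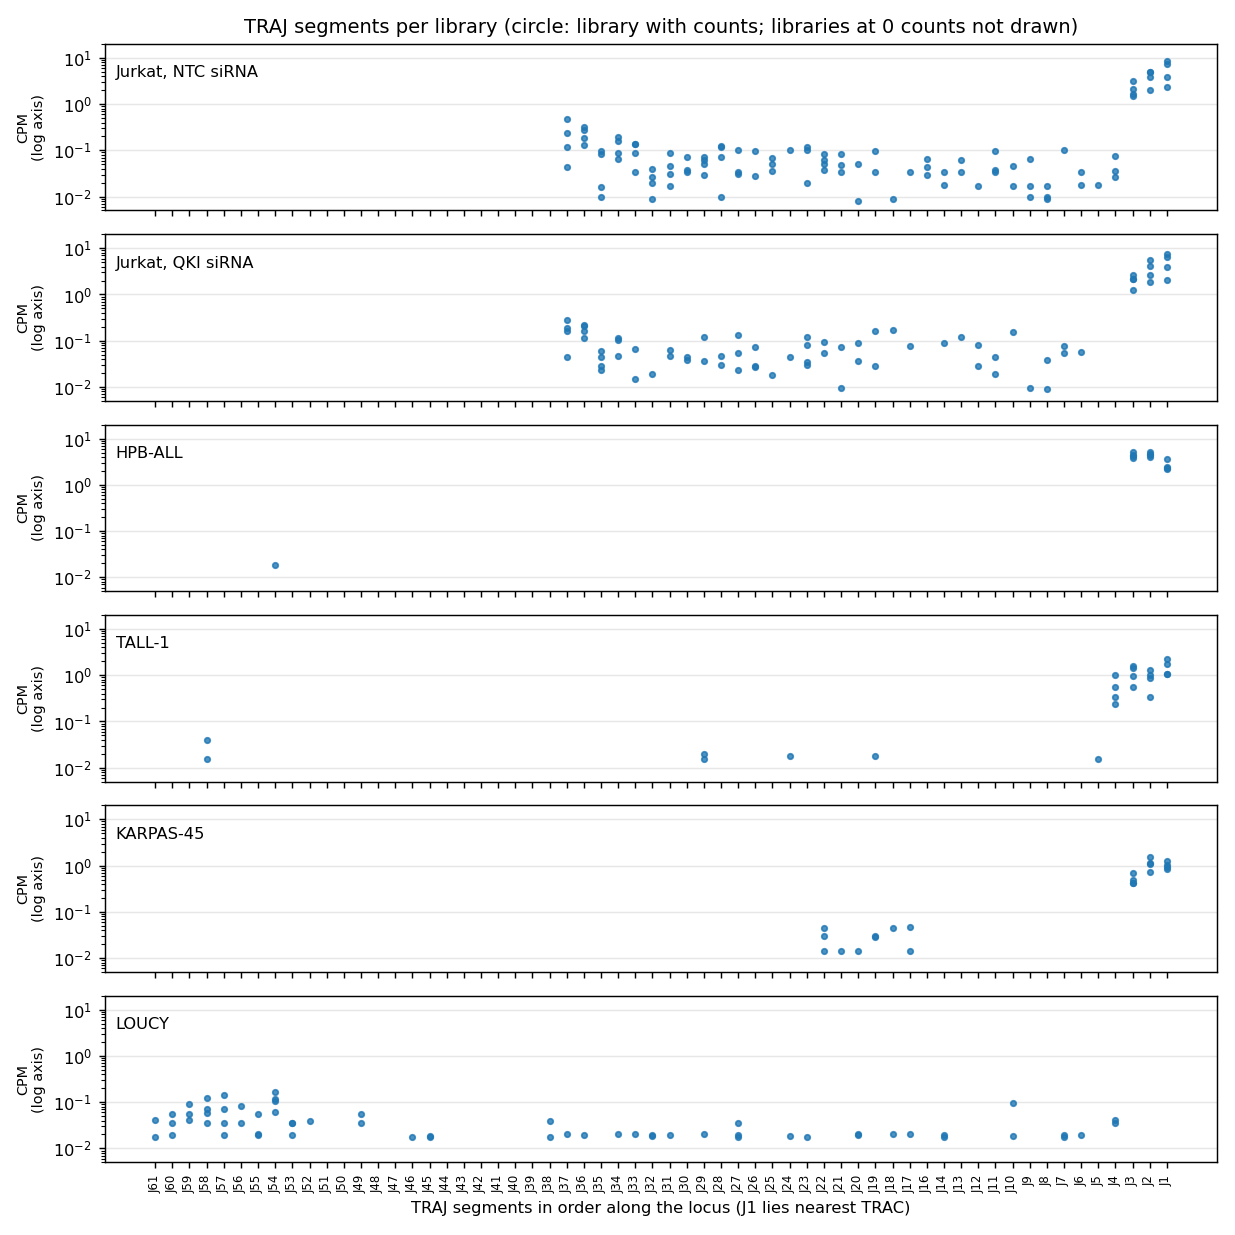
CPM of the TRAJ segments in order along the locus (log axis) in the 6 groups with TRAJ counts; each circle is a library with counts, and libraries at 0 are not drawn. Counts rise steeply at TRAJ3 to TRAJ1 in Jurkat, HPB-ALL, TALL-1 and KARPAS-45, and in Jurkat they run from TRAJ37 onward at low level. In LOUCY they lie mostly at the TRAJ61 end, where TRAJ61 to TRAJ54 overlap AC244502.1 on the minus strand, with fewer from TRAJ37 to TRAJ4. KARPAS-45 and TALL-1 also have some counts between TRAJ37 and TRAJ4.

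Set in order along the chromosome, the lacking members formed long unbroken stretches, a property the choice of members did not use. In Jurkat 60 neighbouring members from TRAV20 to TRAJ38, 461.7 kb that hold TRDC and all TRDV, TRDD and TRDJ segments, were at 0 in all 8 libraries. On their outer sides TRAV19 (4.35 CPM with the NTC siRNA) and TRAJ37 were counted in every library. In HPB-ALL the stretch ran from TRAV20 to TRAJ4, 93 members with 2 counts in total, between TRAV19 and TRAJ3. Its upstream edge is TRAV19, the leading V segment, and its downstream edge TRAJ3, which shared the lead of the TRAJ class with TRAJ2. In Jurkat, by contrast, the dominant TRAV8-4 lies upstream of the edge, and TRAV16 to TRAV19 between them had 2.47 to 9.48 CPM on average with the NTC siRNA.

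The stretches of TALL-1 and KARPAS-45 began at TRDV2. They ran to TRAJ5 in TALL-1 (66 members over 117.9 kb, 8 counts in total) and to TRAJ4 in KARPAS-45 (67 members over 119.9 kb, 19 counts), both with TRDC inside. The segment before either stretch was TRAV41, at 1.53 to 3.80 CPM in the libraries of TALL-1 and 3.90 to 4.31 CPM in those of KARPAS-45. KARPAS-45 had another stretch, directly downstream of its dominant TRAV8-2, of 13 members from TRAV8-3 to TRAV17 at 0 in every library, while TRAV12-1, directly upstream, had 2.49 ± 0.375 CPM (n = 4).

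In the delta lines the stretches with the most members lay on the TRAJ side, while stretches longer in kb lay upstream. ALL-SIL had 61 members from TRDV3 to TRAJ1 at 0 in every library, and DND-41 61 members from TRAJ61 to TRAC with 6 counts in total, all on TRAC. In LOUCY TRAJ53 to TRAJ11, 42 members, had 38 counts in total. Upstream, ALL-SIL was at 0 on all 27 members from TRAV1-1 to TRAV17 (376.3 kb, against 76.06 kb on the TRAJ side). DND-41 lacked 20 members from TRAV1-1 to TRAV13-2 (296.9 kb) and 17 from TRAV31 to TRDD3 (271.9 kb), against 76.84 kb. LOUCY lacked 14 members from TRAV1-1 to TRAV8-2 (225.4 kb), against 49.56 kb. TRAV30 was counted in TALL-1, DND-41 and ALL-SIL at 2.65, 3.43 and 8.78 CPM on average; in LOUCY it had 32 counts in 1 library and 0 to 2 in the other 3.

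The differences between the untreated lines were tested over all 20348 genes that passed the low-count filter, of which 35 were members; the members passed because some line is high in them. In edgeR's quasi-likelihood test over the 6 lines 35 of 35 were called (adjusted p under the threshold of 0.05), where 98% of all genes tested were called, so the count says little about the members. Each line was then set against the mean of the other 5. LOUCY had 17 members higher and 0 lower (of all genes 37.3% higher, 28.5% lower), HPB-ALL 16 and 2 (39.6% higher, 23.4% lower) and TALL-1 14 and 0 (32.9% higher, 24.4% lower). KARPAS-45 had 10 and 2 (39% higher, 34.2% lower), DND-41 9 and 3 (34.4% and 23.3%) and ALL-SIL 9 and 3 (33.8% and 25.4%). As members passed the filter through the lines where they are high, higher calls in those lines were set beforehand. These counts per line are therefore no result about the members either. Fold changes fitted against lines at 0 rest on the prior count and are not given. With DESeq2 the same contrasts gave 16 higher and 9 lower in LOUCY, 15 and 13 in HPB-ALL, 13 and 12 in TALL-1, 9 and 21 in KARPAS-45, 9 and 19 in DND-41 and 9 and 20 in ALL-SIL. With limma-voom they gave 14 and 17, 15 and 18, 13 and 17, 9 and 25, 9 and 24, and 9 and 26 in the same order, so the lower counts depend on the tool. Shares of all genes called by DESeq2 and limma-voom are not given here, so the counts from these tools are no result about the members.

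These contrasts average log levels, so that lines near 0 pull the mean of the other lines down, and a member can be called higher in a line below several others. TRAC was called higher in HPB-ALL, LOUCY, TALL-1 and KARPAS-45 and lower in DND-41 and ALL-SIL, although KARPAS-45 lay below HPB-ALL, LOUCY and TALL-1 in every library. TRDC was called higher in LOUCY, ALL-SIL and DND-41; it was not called in the lines at or near 0, where edgeR gives no usable error. TRAV18 and TRAV19 were the members called lower in KARPAS-45, and with TRAC those called lower in DND-41 and ALL-SIL. In HPB-ALL TRAV22 and TRDV1 were called lower.

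No TRA segment was called in Jurkat after knockdown of QKI. Of 126 members 21 passed the filter, and 0 of 21 were called, where 0.0047% of 21296 genes were called (QKI alone). None reached an unadjusted p under 0.05 with edgeR, DESeq2 or limma-voom. The edgeR log2 fold change was 0.00 for TRAC (SE 0.21, adjusted p = 1.0) and -0.06 for TRAV8-4 (SE 0.20, adjusted p = 1.0). Replicate numbers pair these libraries, and with the pairs in the model the errors narrowed to 0.07 for TRAC (log2 fold change -0.01) and 0.06 for TRAV8-4 (-0.06), still with 0 members called, where 0.0423% of genes were called.

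The 21 log2 fold changes ran from -0.96 (TRAJ34) to 1.24 (TRAV12-2), 14 below 0 and 7 above, with a median of -0.10 against 0.00 over all genes. The groups overlapped in every one of the 21. The share of all genes whose groups overlapped is not given here, so this only describes the members. The smallest p belonged to TRAV12-2, with 3, 11, 9 and 12 counts in the NTC siRNA libraries and 36, 7, 14 and 14 in the QKI siRNA libraries. Library 1 of the QKI siRNA alone lies far above the rest, and the edgeR log2 fold change of 1.24 (SE 0.62) had an adjusted p of 1.0.

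**Figure D5:**
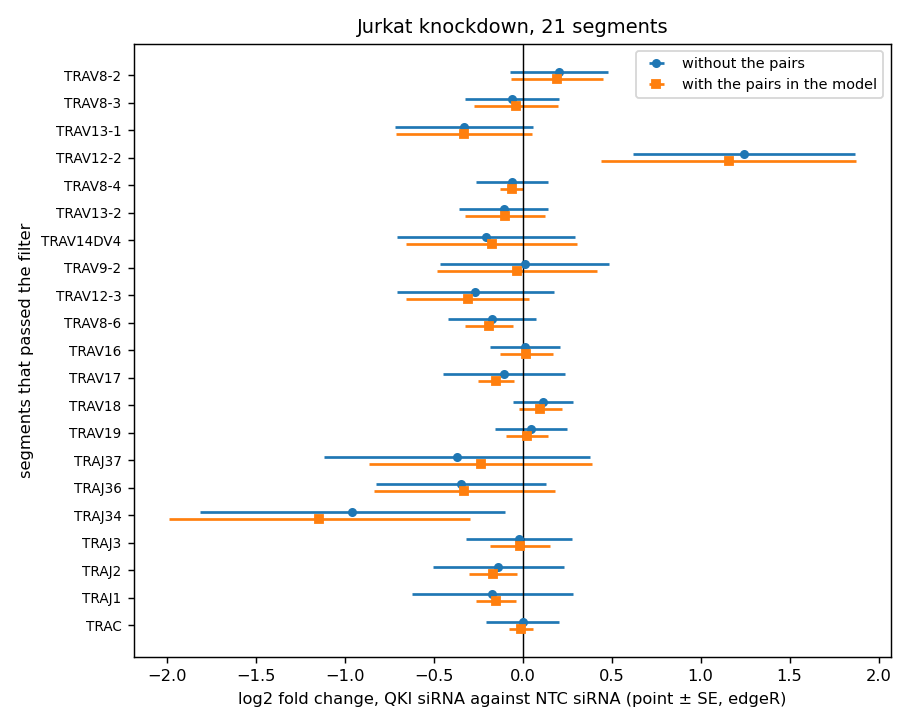
Log2 fold change (QKI siRNA against NTC siRNA) of the 21 segments that passed the filter in Jurkat, with SE bars from edgeR, without (blue) and with (orange) the replicate pairs in the model; segments are in order along the locus. TRAC and TRAV8-4 lie at 0.00 and -0.06 without the pairs and have the narrowest bars of the 21 with the pairs; the widest bar in either model is that of TRAJ34.

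In the libraries labelled HPB-ALL no segment marked a clone. All 54 TRAV and all 60 TRAJ segments were at 0 in all 8 libraries, TRAV19 and TRAV5 of the untreated HPB-ALL line among them. TRAC alone passed the filter. It was not called with the QKI shRNA (edgeR log2 fold change -0.11, SE 0.18, adjusted p = 0.707), where 23.2% of genes were called. Leaving these libraries aside changes no result on the line, since the 2 tables were fitted separately.

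The genes that act with these segments were counted as lists. Of 12 receptor partners (the CD3 chains, CD247, the beta and gamma constant segments, PTCRA, CD4, CD8A and CD8B), all 12 were tested in the lines. HPB-ALL had 10 higher and 1 lower, KARPAS-45 7 and 4, ALL-SIL 5 and 3, TALL-1 5 and 5, DND-41 4 and 6 and LOUCY 1 and 9, where 32.9% to 39.6% of all genes were higher and 23.3% to 34.2% lower in these contrasts. TRBC2, a constant segment of the beta chain, averaged 2590 CPM in HPB-ALL, 2410 in TALL-1, 1879 in LOUCY, 585.1 in KARPAS-45, 247.1 in DND-41 and 136.3 in ALL-SIL, and TRBC1, the other, 1193 CPM in DND-41 and 7.76 in ALL-SIL. TRGC2, a constant segment of the gamma chain that pairs with delta, averaged 403.8 CPM in ALL-SIL but 45.2 in LOUCY and 9.95 in DND-41, so the 3 lines with delta RNA were not alike in it. In the Jurkat knockdown 0 of 11 partners were called; with the pairs in the model CD3G, a CD3 chain, fell (log2 fold change -0.53, SE 0.06, adjusted p = 0.00761, edgeR), from 313.7 to 219.0 CPM. In the libraries labelled HPB-ALL 2 of 4 tested partners were higher with the QKI shRNA and 1 lower, where 23.2% of all genes were called.

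Of 12 genes of V(D)J recombination, 10 to 12 averaged over 1 CPM in each line. RAG2, which forms the recombinase with RAG1, was at 0 in every TALL-1 library. RAG1, a subunit of the recombinase, averaged 750.3 CPM in DND-41 and 469.1 CPM in Jurkat with the NTC siRNA, but 54.5 in HPB-ALL, 25.9 in KARPAS-45, 3.30 in ALL-SIL, 2.64 in LOUCY and 0.0907 in TALL-1. DNTT, which adds bases at the joints, averaged 271.1 CPM in Jurkat with the NTC siRNA and 263.9 CPM in TALL-1, and 0.00939 CPM in LOUCY. Against the mean of the others, 8 of the 12 were higher and 2 lower in KARPAS-45, 4 and 5 in HPB-ALL, 4 and 4 in LOUCY and in DND-41, 3 and 5 in TALL-1 and 3 and 4 in ALL-SIL, beside the same 32.9% to 39.6% and 23.3% to 34.2% of all genes. In LOUCY the count was 2 higher and 3 lower with the replicate block, a fit that left out the 2 unnumbered LOUCY libraries. Shares of all genes called in that fit are not given here. None of the 12 was called in the Jurkat knockdown. In the libraries labelled HPB-ALL 1 of 11 was higher and 3 lower, or 1 and 1 with the replicate block, where 23.2% of all genes were called without it.

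Of 19 factors known at the TRA and TRD enhancers or as their repressors, KARPAS-45 had 11 higher and 3 lower, LOUCY 9 and 3, HPB-ALL 8 and 6, ALL-SIL 6 and 5, TALL-1 6 and 4 and DND-41 3 and 10, beside 32.9% to 39.6% of all genes higher and 23.3% to 34.2% lower. The homeobox factors TLX1 and TLX3, known as repressors of the TRA enhancer in T-ALL, were each high in some lines. TLX1 averaged 391.6 CPM in ALL-SIL. TLX3 averaged 121.5 CPM in DND-41 and 224.5 CPM in HPB-ALL. Whether their levels bear on TRAC was not tested. HOXA9, of the same class, averaged 64.7 CPM in LOUCY. None of the 16 factors tested in the Jurkat knockdown was called, and in the libraries labelled HPB-ALL 5 of 16 were higher and 1 lower, where 23.2% of all genes were called.

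Over the 24 libraries of the 6 lines, the genes outside the segments whose levels were most like TRAC by Spearman correlation were HTR7P1 (0.952), FOXO6 (0.936), ENSG00000289299 (0.935), GASAL1 (0.924) and CYB5A (0.923). CYB5A, a cytochrome, averaged 99.1 CPM in HPB-ALL and 0 in ALL-SIL. For TRDC they were CD180 (0.938), BACE1 (0.935), HOXA6 (0.930), GDAP1 (0.927) and HES7 (0.927). GDAP1 averaged 33.3, 20.9 and 19.5 CPM in LOUCY, ALL-SIL and DND-41 and at most 6.66 CPM in the other lines. CD180, by contrast, averaged 12.7 CPM in LOUCY, only 0.0736 in ALL-SIL and 0.0666 in DND-41, and 0 in the other lines. In the same order BACE1 averaged 7.65, 2.34 and 0.408 CPM and HES7 3.16, 2.01 and 0.928 CPM. HOXA6 averaged 8.02, 3.44 and 2.78 CPM in them, but also 2.31 CPM in HPB-ALL. The points are 4 libraries of each of 6 lines, so these are descriptions of 6 lines.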

How the data were processed

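Raw read counts per gene were deposited by the authors in 3 tables, for the Jurkat knockdown, the knockdown labelled HPB-ALL and 6 untreated lines. Per the submitters' processing notes, Trimmomatic 0.39, STAR 2.7.11b and GRCh38 were used; no source used here gives the counting tool, the annotation release, or how strand and reads that fit several segments were treated. Reads across a V-J joint can align poorly, which can lower V and J counts against constant segments. Rows that name no gene, 13.0% to 15.1% of the table labelled HPB-ALL, were left out. Of the LOUCY columns, 2 share a replicate number and were used unnumbered.

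The tests used edgeR 4.0.16 (R 4.3.3) (filterByExpr, TMM, quasi-likelihood test, Benjamini-Hochberg over all genes tested, threshold 0.05), and the scripts were tested on simulated data. CPM are TMM-scaled within each table, and levels set across tables rest on separate scalings. Positions, exon lengths and sequences are from GENCODE 29. A dominant segment has the highest CPM per kilobase of its class, a mean of at least 1 CPM and over 3 counts in every library. Named were TRAC and TRDC, dominant segments, their runners-up and neighbours in each class, the member with the smallest p in a knockdown, the 5 genes most like TRAC or TRDC, and receptor and recombination genes by value; TRAV4, TRAV8-5, TRAV12-1, TRAV22, TRAV41 and TRAJ34, TLX1, TLX3, HOXA9, TRGC2 and the genes like TRDC were chosen after their values were seen. The segments and the gene lists were chosen with earlier results of these data known. In Jurkat same-numbered libraries deviated together (correlations 0.337 to 0.556), so the numbers pair them. All 60 pairs of replicates differed by more than sampling noise (chi-square over its degrees of freedom, 12.7 to 348). Alternatives were RLE factors, no filter, DESeq2 1.42.0, limma-voom (limma 3.58.1), the replicate block, each library left out, plain CPM, and other limits for a lacking segment.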

Additional observations from a re-analysis of the deposited data

Results flagged for a closer look

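Among 72 sets of 4 libraries, each a segment in a group, 2 held a library far from the other 3; chance flags about 1 in 20 such sets, so this is no more than chance gives. TRAV8-2 in Jurkat with the NTC siRNA measured 0.693 CPM in library 4, and the nearest of the other libraries 1.02 CPM. TRDV1 in TALL-1 measured 0.155 CPM in library 4, and the nearest of the others 0.109 CPM, a difference of 8 against 7 counts.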

How the results depend on the processing

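The dominant segment of each class stayed the top segment of its class under the alternatives run, except in the TRAJ classes of HPB-ALL and KARPAS-45. In HPB-ALL TRAJ2 led with 39.7% by plain CPM and with 39.9% without replicate 2, and in KARPAS-45 TRAJ1 led with 42.4% without replicate 4; leaving out each library in turn gave 38.3% to 39.9% and 38.5% to 42.4%. Plain CPM moved the shares of the TRAV leaders to 58.4% in HPB-ALL, 88.3% in TALL-1, 88.8% in KARPAS-45 and 62.9% in DND-41. With 0 counts as the limit, 62 members were lacking in LOUCY in place of 101. The number of members called in the contrasts of lines depends on the tool. DESeq2 called 29 in ALL-SIL, 28 in DND-41, 28 in HPB-ALL, 30 in KARPAS-45 and 25 in TALL-1, and limma-voom 35, 33, 33, 34 and 30, and 31 in LOUCY, against 12, 12, 18, 12, 14 and 17 with edgeR. With no filter, edgeR called 23 in KARPAS-45, 36 in LOUCY and 59 over all lines. The cause was not tested. Shares of all genes called under these settings, or in the lines with the replicate block, are not given here. The member counts under them are therefore no result about the members. In the Jurkat knockdown 0 members were called under every alternative run. With no filter 3 of 59 had an unadjusted edgeR p under 0.05. The share of all genes under that p is not given here, so this is no result about the members. With the replicate block, 9 genes and 0 members were called there, DESeq2 called 2 genes, and the block changed no other call of a knockdown member. In the lines same-numbered libraries did not deviate together throughout (-0.124 to 0.388), nor in the libraries labelled HPB-ALL (-0.179 to 0.045). Pairs of library 4 that left out KARPAS-45 were all positive, at 0.166 to 0.388. With KARPAS-45 they gave 0.0093 to 0.0605, and pairs of libraries 1 to 3 gave -0.124 to 0.28. Where TRAC was abundant, library 4 was the lowest of each untreated line but TALL-1 (library 1). Where TRDC was high, library 4 was the lowest of each line. Whether library 4 carries a shift shared across lines was not tested. The block gave 11 to 18 members called per line and 37 over all lines. Segments with few counts, such as TRAV12-2 (3 to 36 counts per Jurkat library), had wide errors.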
